A study of Homo sapiens with 6 samples.

Results

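The renal lineage transcription factors are 8 genes, PAX2, PAX8, HNF4A, LHX1, EMX2, GATA3, POU3F3 and TFCP2L1, chosen by symbol out of the 25369 genes of the expression files. All 8 were listed in every sample. They were followed in Caki2, an established human cell line described by the study as clear cell renal carcinoma (ccRCC) and as lacking PBRM1 protein because of a deletion in its PBRM1 gene. PBRM1 is the polybromo subunit of the PBAF chromatin remodeling complex. Cells of the Caki2+Vector group carried an empty lentiviral vector that responds to doxycycline, and cells of the Caki2+PBRM1 group carried the same type of vector with full-length PBRM1. Both groups received doxycycline at 2 µg/ml, and each group had 3 samples, A, B and C. The lines were stably infected and drug-selected, and whether they were clones was not given in the sources used here. RNA-Seq was compared between the groups to ask what re-expression of PBRM1 changes in this background.

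The mammalian kidney forms from a nephric duct, its outgrowth the ureteric bud, and a mesenchyme that turns into nephron epithelium. PAX2 and PAX8 act together to set up this lineage, and LHX1, EMX2 and GATA3 act in the duct and bud. In the maturing nephron, HNF4A is a nuclear receptor of the proximal tubule, POU3F3 acts in the loop of Henle and distal tubule, and TFCP2L1 acts in the collecting duct. PAX8 and PAX2 proteins are widely used as stains that mark a tumor as renal.

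Samples held 7312955 to 10835355 reads on genes. The labels were checked on PBRM1 itself, whose mean went from 187 ± 7.37 normalized counts with the empty vector to 2545 ± 127 with PBRM1 (SD over 3 samples each). Sample A of Caki2+Vector stood apart from its group: between its reads and those of samples B and C the chi-square per degree of freedom over genes was 3.09 and 2.84, against 1.34 between B and C and 1.19 to 1.22 within Caki2+PBRM1. Values are therefore also given without it where it changes them. The keratins KRT8 and KRT18 and the intermediate filament gene VIM were high in every sample, the lowest value among them being 2741 for KRT18. They differed between the groups: KRT18 and KRT8 fell by 0.34 and 0.18 on the log2 scale (adjusted p = 1.74e-07 and 2.09e-04, limma), and VIM rose by 0.18 (adjusted p = 3.45e-05, limma), a call lost after quantile normalization (0.034, adjusted p = 0.435). The part of these shifts in the results was not tested. EPCAM, another epithelial marker, was near the filter on low values, at 12.3 ± 1.63 and 16.8 ± 3.10 normalized counts (SD, n = 3 each; adjusted p = 0.297, limma). CA9, a hypoxia-induced gene typical of ccRCC, was below the filter on low values, with 5 reads over the 3 Caki2+Vector samples and 32 over the 3 Caki2+PBRM1 samples. Of 10 markers of leukocytes, endothelium and fibroblasts, 7 were below the filter, CD3E and CDH5 had no read in any sample, and the summed level ran from 113 to 118 in Caki2+Vector and from 107 to 137 in Caki2+PBRM1. The 3 that passed were all markers of fibroblasts and pericytes. COL1A1 was at 74.3 ± 6.83 and 78.5 ± 11.9 normalized counts (SD, n = 3 each). PDGFRB was at 21.1 ± 2.89 and 23.4 ± 0.63, and PDGFRA at 10.6 ± 1.86 and 11.6 ± 1.80. PTPRC, the leukocyte marker CD45, had 14 reads in Caki2+Vector and 2 in Caki2+PBRM1.

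Stretches of promoter are shown for PAX8, the most highly expressed of the 8 genes, and EMX2, one of the lowest, to place their levels beside the sequence upstream of their start. In the RefSeq promoter table used here (GRCh38.p14) 7 of the 8 genes were matched by symbol, and the promoter of LHX1 was not analyzed here. Each sequence is the 250 bases before the start, on the strand of the gene, with CpG dinucleotides in capitals. PAX8 lies at chr2:113278922-113279171 (minus strand) and EMX2 at chr10:117542496-117542745 (plus strand).
PAX8: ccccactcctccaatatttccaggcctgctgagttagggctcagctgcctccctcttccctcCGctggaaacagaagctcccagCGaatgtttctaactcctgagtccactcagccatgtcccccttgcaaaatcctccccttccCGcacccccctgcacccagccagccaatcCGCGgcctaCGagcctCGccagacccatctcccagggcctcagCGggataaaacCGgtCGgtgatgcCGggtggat
EMX2: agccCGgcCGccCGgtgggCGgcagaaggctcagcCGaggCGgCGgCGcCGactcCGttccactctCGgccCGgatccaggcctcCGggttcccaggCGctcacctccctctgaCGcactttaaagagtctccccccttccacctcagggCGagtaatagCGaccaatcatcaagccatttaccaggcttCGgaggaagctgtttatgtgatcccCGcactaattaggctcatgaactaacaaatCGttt
The PAX8 stretch held 11 CpG, which equals the median of all 35116 RefSeq promoters of this length (quartiles 3 and 23), whereas the nearly silent EMX2 held 20. POU3F3 had 18 CpG and TFCP2L1 had 32. The 2 starts of PAX2 had 10 and 15, both starts of HNF4A had 8, and the 6 starts of GATA3 ranged from 4 to 30. The CCAAT box, searched as CCAAT on both strands, matched PAX8 2 times, POU3F3 3 times and EMX2 1 time, and 32.0% of all promoters held at least 1 match. The GC box, searched as GGGCGG on both strands, was absent from the PAX8 stretch and present 2 times in EMX2, against 42.6% of all promoters with a match. Among these genes the count of CpG did not follow the order of expression, since TFCP2L1 with the most CpG among genes with a single start was expressed at a low level.

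Expression in Caki2 was taken as 10 or more normalized counts in 3 or more samples, the filter that also set which genes were tested. By this measure 6 of the 8 factors were expressed, among 52.4% of all genes. To compare genes with each other, the normalized count was divided by the summed length of a gene's exons in kb. PAX8 had by far the highest level, 283 ± 14.4 normalized counts per kb (SD, n = 6), above 93.9% of the 21245 genes with a length. POU3F3 followed at 64.0 ± 7.64 normalized counts per kb. GATA3 had 34.2 ± 3.86 and LHX1 had 30.2 ± 2.90 normalized counts per kb, above 65.1% and 63.5% of genes.

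The lower part of the order held PAX2 at 4.14 ± 0.663 normalized counts per kb, TFCP2L1 at 2.13 ± 0.658, EMX2 at 0.932 ± 0.273 and HNF4A at 0.246 ± 0.217 (SD, n = 6). The ranges over the 6 samples did not touch between PAX8 and POU3F3 (a 4.41-fold ratio of means), POU3F3 and GATA3 (1.87-fold), LHX1 and PAX2 (7.29-fold), and TFCP2L1 and EMX2 (2.29-fold). Ranges overlapped for GATA3 and LHX1, where GATA3 was higher in 4 of 6 samples and the order turned when the longest transcript was used as the length (37.7 against 43.2 normalized counts per kb). They also overlapped for PAX2 and TFCP2L1 and for EMX2 and HNF4A, although PAX2 and EMX2 were each the higher gene in 6 of 6 samples.

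**Figure D1:**
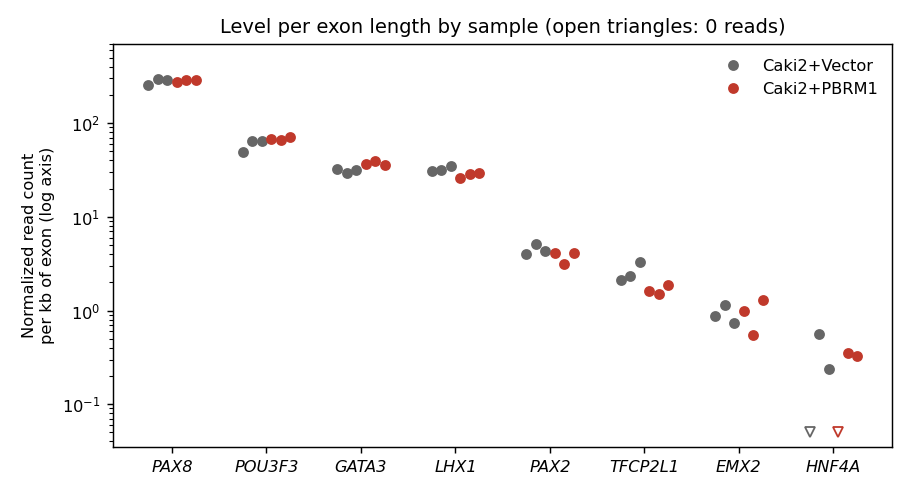
Level of the 8 factors in each sample as normalized read count per kb of exon on a log axis, with Caki2+Vector in gray and Caki2+PBRM1 in red. PAX8 lies between 256 and 297 in all 6 samples, and HNF4A is at 0 in 2 samples (open triangles).

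Limma called none of the 6 expressed factors between the groups at an adjusted p under 0.05 (Benjamini-Hochberg over all 13303 genes tested). With 3 samples per group, a factor that was not called may still have changed upon PBRM1 re-expression. In the same test 3886 genes were called, 29.2% of those tested, of which 16.2% were higher and 13.0% lower in Caki2+PBRM1. An unadjusted p under 0.05 was reached by 4 of the 6 factors, against 38.9% of all genes tested. The values of the 2 groups did not overlap for the same number, 4 of 6, against 41.7% of all genes tested. Of the 6 log2 fold changes (Caki2+PBRM1 minus Caki2+Vector) 3 were positive, and their median was -0.096, against -0.004 over all genes tested. Other tests of the recovered reads called 1 factor, POU3F3, with edgeR and with voom, and 0 with DESeq2. In bulk RNA, a change in the number of expressing cells and a change in RNA per cell cannot be told apart.

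PAX8 (ENSG00000125618, chr2:113973574-114036498 on the minus strand of GRCh37) encodes the paired-domain factor that remains on in most renal epithelial tumors. Its normalized read count was 1888, 2190 and 2137 in Caki2+Vector samples A, B and C and 2046, 2115 and 2120 in Caki2+PBRM1 samples A, B and C. The groups overlapped, with the lowest and the highest value both in Caki2+Vector. Means were 2072 ± 161 and 2094 ± 41.2 (SD, n = 3 each), and limma gave a log2 difference of 0.018 with an SE of 0.047 (adjusted p = 0.815). The 95% interval of the difference, which is not adjusted for the number of genes, spanned a ratio of 0.947 to 1.083. Without sample A of Caki2+Vector, the log2 fold change was -0.0475 (adjusted p = 0.342).

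PAX2 (ENSG00000075891, chr10:102495153-102589701, plus strand), the close relative of PAX8 that switches on in nephric duct and condensing mesenchyme, rested on 88 and 80 reads in the 2 groups. It had normalized counts of 26.5, 34.0 and 28.8 in Caki2+Vector and of 27.1, 20.4 and 26.9 in Caki2+PBRM1. The groups overlapped, and sample B was the highest of Caki2+Vector and the lowest of Caki2+PBRM1. In limma PAX2 differed by -0.26 ± 0.22 on the log2 scale (SE, adjusted p = 0.406), and the 95% interval of the ratio ran from 0.615 to 1.138, much wider than that of PAX8. Leaving out sample A of Caki2+Vector gave -0.33 (adjusted p = 0.317, limma).

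LHX1 (ENSG00000273706, chr17:35294084-35301912, plus strand) encodes the LIM-homeodomain factor of the nephric duct and early nephron. Its normalized counts were 151, 156 and 169 in Caki2+Vector and 128, 140 and 144 in Caki2+PBRM1. Every Caki2+PBRM1 sample was lower than every Caki2+Vector sample. The means, 159 ± 9.12 and 137 ± 8.51 (SD, n = 3 each), differed by -0.21 ± 0.10 on the log2 scale (SE, adjusted p = 0.121, limma). Leaving out sample A of Caki2+Vector gave -0.24 (adjusted p = 0.0841, limma).

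EMX2 (ENSG00000170370, chr10:119301956-119309057, plus strand), a homeobox factor of the ureteric bud epithelium, did not pass the filter. Its 9 reads in Caki2+Vector and 10 in Caki2+PBRM1 gave normalized counts of 2.84, 3.78 and 2.40 and of 3.25, 1.78 and 4.20. The groups overlapped, and a difference between them was not detectable at this depth.

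GATA3 (ENSG00000107485, chr10:8087341-8117161, plus strand) encodes the zinc-finger factor of the nephric duct and collecting system, which acts upstream of the receptor gene RET. Normalized counts were 109, 100.2 and 107 in Caki2+Vector and 125, 135 and 122 in Caki2+PBRM1. All 3 Caki2+PBRM1 samples lay above all 3 Caki2+Vector samples. Limma gave a log2 difference of 0.27 ± 0.11 (SE, adjusted p = 0.0666), from means of 105 ± 4.54 and 127 ± 7.06 (SD, n = 3 each). Leaving out sample A of Caki2+Vector gave 0.29 (adjusted p = 0.0570).

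HNF4A (ENSG00000101076, chr20:42984339-43061485, plus strand), a regulator of proximal tubule and hepatocyte genes, was near the limit of detection. Its 8 reads in each group gave normalized counts of 0, 5.67 and 2.40 in Caki2+Vector and of 0, 3.56 and 3.36 in Caki2+PBRM1. Sample A of both groups had no HNF4A read, where the limit that a count of 0 allows is 3 reads.

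POU3F3 (ENSG00000198914, chr2:105469745-105475032, plus strand) encodes a POU-homeodomain factor, also known as BRN1. It showed 237, 311 and 308 normalized counts in Caki2+Vector and 327, 320 and 342 in Caki2+PBRM1. The groups did not overlap, but sample A of Caki2+Vector lay far below the other 5 samples. Means of 285 ± 42.0 and 330 ± 11.0 (SD, n = 3 each) differed by 0.22 ± 0.088 on the log2 scale (SE, adjusted p = 0.0618, limma). Its call turned on the setting: it passed the threshold with edgeR's quasi-likelihood test (adjusted p = 0.0493), with voom (adjusted p = 0.0452) and with the replicate letter as a block (adjusted p = 0.0354), but not with DESeq2 (adjusted p = 0.174). It also passed in limma without sample B (log2 fold change 0.29, adjusted p = 0.0325) or sample C (0.28, adjusted p = 0.0263) of Caki2+Vector, and fell to 0.090 without sample A (adjusted p = 0.386).

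TFCP2L1 (ENSG00000115112, chr2:121974163-122042778, minus strand), a relative of the grainyhead factors that acts in intercalated cells of the collecting duct, rested on 70 and 51 reads. It had normalized counts of 19.9, 21.7 and 31.2 in Caki2+Vector and of 15.2, 14.2 and 17.6 in Caki2+PBRM1. The groups did not overlap, with sample C of Caki2+Vector well above the rest. Its log2 difference in limma, -0.58 ± 0.25 (SE, adjusted p = 0.0883), was the most negative of the 6, with a 95% interval of the ratio from 0.467 to 0.960. It passed the threshold after quantile normalization only (-0.66, adjusted p = 0.0489). In limma it was -0.70 without sample A of Caki2+Vector (adjusted p = 0.0529) and -0.39 without sample C of Caki2+Vector (adjusted p = 0.334).

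**Figure D2:**
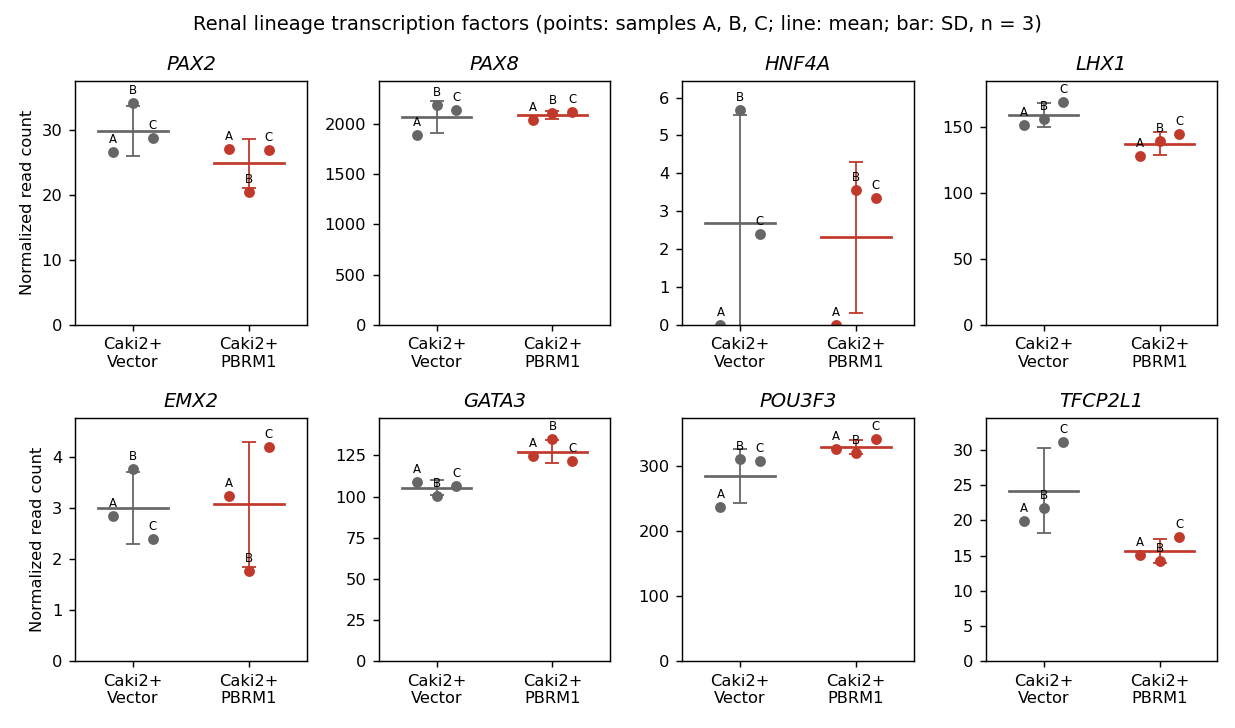
Normalized read count of each of the 8 factors in the 3 Caki2+Vector and 3 Caki2+PBRM1 samples (points A, B and C, line for the mean, bar for the SD, axes from 0). LHX1, GATA3, POU3F3 and TFCP2L1 show groups that do not overlap, and HNF4A and EMX2 stay under 6.

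**Figure D3:**
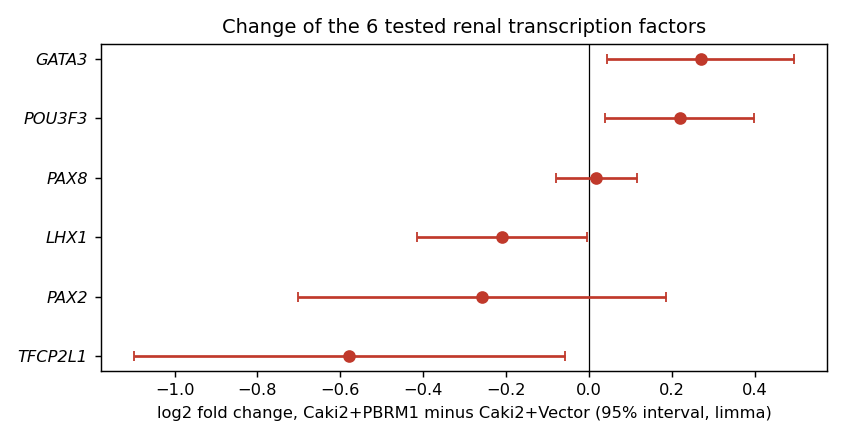
Log2 fold change (Caki2+PBRM1 minus Caki2+Vector) of the 6 tested factors with its 95% interval from limma. The interval of PAX8 is the narrowest, from -0.079 to 0.115, and that of TFCP2L1 the widest, from -1.10 to -0.058, and none of the 6 passed an adjusted p of 0.05.

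Noncoding RNA genes lie beside or across several of these loci. PAX8-AS1 (chr2:113968998-114034158, plus strand of GRCh37) overlaps PAX8 on the opposite strand, and since the strand setting of the counting was not given in the sources used here, reads of the pair cannot be told apart. PAX8-AS1 had 126, 118 and 153 normalized counts in Caki2+Vector and 138, 133 and 138 in Caki2+PBRM1, and its groups overlapped (log2 fold change 0.051 ± 0.11 SE, adjusted p = 0.771, limma). LINC01158, which RefSeq lists as PANTR1 directly beside POU3F3, had 88.0, 69.0 and 46.7 normalized counts in Caki2+Vector and 86.7, 86.2 and 95.7 in Caki2+PBRM1. In Caki2+Vector, sample A was the highest for LINC01158 and the lowest for POU3F3. The log2 fold change of LINC01158 was 0.44 ± 0.17 (SE, adjusted p = 0.0550, limma), and it passed without sample A of Caki2+Vector (0.65, adjusted p = 7.59e-04) and with the replicate block (adjusted p = 0.0326). The same limit holds for EMX2OS, GATA3-AS1 and HNF4A-AS1, which overlap their partner genes on the opposite strand. EMX2OS had 4 reads in Caki2+Vector and 0 in Caki2+PBRM1, GATA3-AS1 had 5 and 8, and HNF4A-AS1 had no read in any sample.

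To describe which genes moved most like the 4 most highly expressed factors, Pearson's r of log2(normalized count + 1) was taken over the 6 samples, which share group, depth and library effects. PAX8 was closest to SBF1 (r = 0.994), LMNB2 (0.993) and HLA-E (0.990). POU3F3 was closest to MTFP1, PLIN3 and KIAA2013 (r of 0.995, 0.995 and 0.994). LHX1 was closest to DHRS11 (r = 0.996), which lies on the same chromosome at chr17:34948309-34957233, then to SLC7A2 (0.989) and LOC100130238 (0.989). GATA3 was closest to ABCA17P (r = 0.997), SP3 (0.995) and AK7 (0.990). With 6 samples such values are common: 69 genes had r above 0.95 with PAX8, 172 with POU3F3, 77 with LHX1 and 163 with GATA3.

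Close relatives of the 8 factors were mostly below the filter in Caki2. Of 29 family paralogs 11 were expressed, against 52.4% of all genes, and 8 had no read in any sample. Of the 11, 3 were called, 27.3% against 29.2% of all genes tested. HNF4G, the paralog of HNF4A, was expressed where HNF4A was not, at 43.6 ± 6.62 normalized counts per kb (SD, n = 6), and fell upon PBRM1 re-expression from 236 ± 16.7 to 182 ± 9.99 normalized counts (SD, n = 3 each; -0.37 ± 0.088 on the log2 scale, adjusted p = 0.00191, limma). GRHL1, a grainyhead relative of TFCP2L1, fell from 71.2 ± 3.81 to 48.2 ± 6.30 normalized counts (-0.56 ± 0.15 SE, adjusted p = 0.00598, limma). PAX6, best known from eye and pancreas, rose from a low 9.12 ± 3.79 to 19.7 ± 5.86 normalized counts (1.06 ± 0.32 SE, adjusted p = 0.0133, limma), a call lost without sample B of Caki2+Vector (0.80, adjusted p = 0.0830) or samples B (0.86, adjusted p = 0.112) or C (1.06, adjusted p = 0.0512) of Caki2+PBRM1, and with DESeq2 (adjusted p = 0.0676). PAX6 was under 10 normalized counts in samples A and B of Caki2+Vector and passed the filter through Caki2+PBRM1. PAX5 had 1 read in all.

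Cofactors that bind these factors or take part in their complexes were also listed. The 8 members and all the gene lists, this one included, were chosen with earlier results of these data known. Their counts beside all genes are therefore description only. Of 10 listed cofactors 8 were tested, against 52.4% of all genes. Of the 8, 4 were called, all higher, against 16.2% of all genes tested called higher. SSBP2 and SSBP3 stabilize the complex of LDB1 with LIM-homeodomain factors such as LHX1. SSBP2 rose from 5.95 ± 2.84 to 21.8 ± 1.10 normalized counts (1.81 ± 0.34 on the log2 scale, adjusted p = 1.35e-04, limma), and SSBP3 from 116 ± 10.2 to 196 ± 13.6 (0.75 ± 0.10 SE, adjusted p = 1.21e-06, limma). Their partner LDB1 was at 338 ± 9.35 and 349 ± 23.4 normalized counts (adjusted p = 0.697, limma). ZFPM1, a partner of GATA factors, rose from 29.5 ± 3.33 to 45.3 ± 8.16 (0.60 ± 0.19 SE, adjusted p = 0.0196, limma) and lost its call without sample C of Caki2+PBRM1 (0.46, adjusted p = 0.156) and with DESeq2 (adjusted p = 0.105). PAGR1, a partner of PAXIP1 in histone methyltransferase complexes, rose by 0.16 ± 0.055 (SE, adjusted p = 0.0313, limma), a call lost without sample A of Caki2+Vector (adjusted p = 0.0565) or samples B (adjusted p = 0.151) or C (adjusted p = 0.110) of Caki2+PBRM1, and with DESeq2 (adjusted p = 0.106). SSBP2 had under 10 normalized counts in every Caki2+Vector sample (6.63, 2.83 and 8.39) and passed the filter through Caki2+PBRM1 alone. The count of the list was 3 without sample A of Caki2+Vector or when 10 counts were required in every sample. It was 2 without sample C of Caki2+PBRM1 or with DESeq2.

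Other transcription factors of kidney development stood beside the 8 with 19 of 30 expressed, against 52.4% of all genes. Of the 19, 10 were called higher and 1 lower, against 16.2% and 13.0% of all genes tested. DESeq2 called 7 of them in all. The median log2 fold change of the 19 was 0.24, against -0.004 over all genes tested. These values are description only, since the list was chosen with earlier results of these data known. SALL1, OSR1 and PPARA rose by 0.37 ± 0.068, 0.82 ± 0.17 and 0.41 ± 0.066 (log2 fold change ± SE), SALL1 and OSR1 being known from nephron progenitors and PPARA from fatty acid oxidation. ESRRG rose by 0.95 ± 0.30 (SE, adjusted p = 0.0152, limma), a call lost without sample C of Caki2+Vector (0.75, adjusted p = 0.0655) or sample A of Caki2+PBRM1 (0.84, adjusted p = 0.0865), and with DESeq2 (adjusted p = 0.119). WT1, which marks podocytes and their progenitors, was the only one of the list called lower, with 32.2, 34.0 and 29.96 normalized counts in Caki2+Vector and 9.75, 16.0 and 5.04 in Caki2+PBRM1 (log2 fold change -1.68 ± 0.30 SE, adjusted p = 1.03e-04, limma). WT1 was under 10 normalized counts in samples A and C of Caki2+PBRM1 and passed the filter through Caki2+Vector. ESRRG was under 10 in samples B and C of Caki2+Vector and passed the filter through Caki2+PBRM1. SIX2, a factor of nephron progenitors, was at 81.1 ± 5.13 and 89.8 ± 5.28 normalized counts (SD, n = 3 each) and did not pass (adjusted p = 0.427, limma).

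Genes of the ureteric bud and early nephron, where PAX2, PAX8, GATA3 and LHX1 act, were called higher in 7 of 10 tested and lower in 0, against 16.2% and 13.0% of all genes tested, and DESeq2 called 5. Their median log2 fold change was 0.57, against -0.004 over all genes tested. This list too was chosen with earlier results of these data known, so its count and median are description only. GFRA1, the co-receptor through which GDNF reaches the receptor RET, had 13.3, 25.5 and 25.2 normalized counts in Caki2+Vector and 168, 191 and 161 in Caki2+PBRM1, and limma put the rise at 3.02 ± 0.19 on the log2 scale (SE, adjusted p = 3.88e-11). RET itself was near the filter in both groups, at 11.9 ± 1.41 and 10.6 ± 1.54 normalized counts (adjusted p = 0.753, limma), and its ligand GDNF had 0 reads in Caki2+Vector and 1 in Caki2+PBRM1. CDH6, a cadherin of the early nephron, rose from 1163 ± 47.6 to 2536 ± 26.9 normalized counts (1.12 ± 0.043 SE, adjusted p = 1.59e-18, limma). SPRY1, an inhibitor of receptor tyrosine kinase signaling, rose from 31.9 ± 4.24 to 79.1 ± 3.21 (1.29 ± 0.16 SE, adjusted p = 3.73e-07, limma). CDH16, the kidney-specific cadherin, rose from 421 ± 40.3 to 556 ± 7.62 (0.40 ± 0.067 SE, adjusted p = 2.56e-05, limma). The Notch ligand gene DLL1 rose by 1.01 ± 0.31 (SE, adjusted p = 0.0147, limma), a call lost without sample A (0.91, adjusted p = 0.0812) or B (0.90, adjusted p = 0.0857) of Caki2+PBRM1, and with DESeq2 (adjusted p = 0.101). DLL1 was under 10 normalized counts in samples A and C of Caki2+Vector and passed the filter through Caki2+PBRM1.

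**Figure D4:**
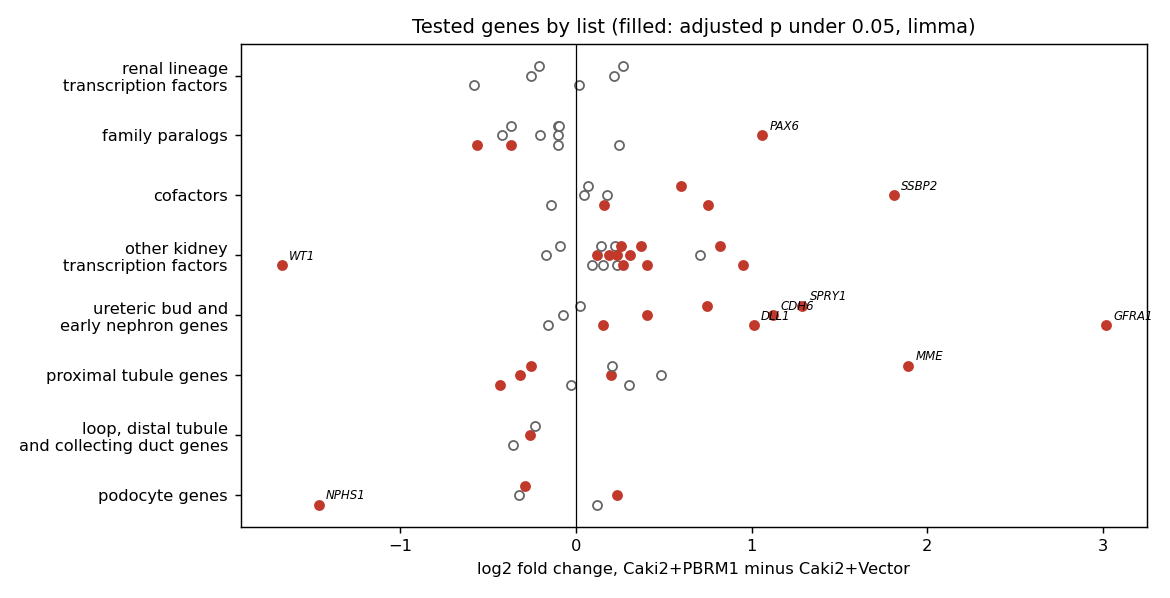
Log2 fold change (Caki2+PBRM1 minus Caki2+Vector) of each tested gene, by gene list, filled where the adjusted p of limma is under 0.05. The 6 renal lineage factors are all open and lie between -0.58 and 0.27, whereas GFRA1 lies at 3.02 and WT1 at -1.68.

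Most genes that mark finished tubule segments were below the filter, as was HNF4A. Of 25 proximal tubule genes 9 were tested, against 52.4% of all genes. Of the 9, 2 were called higher and 3 lower, against 16.2% and 13.0% of all genes tested. MME, the brush border peptidase neprilysin, rose from 8.16 ± 1.44 to 33.2 ± 7.19 normalized counts (1.89 ± 0.27 SE, adjusted p = 3.28e-06, limma), and GGT1 rose by 0.20 ± 0.048 (SE, adjusted p = 0.00184, limma). MME had under 10 normalized counts in every Caki2+Vector sample (9.47, 6.61 and 8.39) and passed the filter through Caki2+PBRM1 alone. SLC3A1, a subunit of the cystine transporter, and PDZK1IP1 fell by 0.43 and 0.32 on the log2 scale (adjusted p = 0.00788 and 3.30e-05, limma), and the call of SLC3A1 was lost with DESeq2 (adjusted p = 0.0629). PDZK1, a scaffold protein, fell by 0.25 (adjusted p = 0.0154, limma), a call lost without sample B of Caki2+Vector (adjusted p = 0.0690) or sample A of Caki2+PBRM1 (adjusted p = 0.0819). The endocytic receptor CUBN was at 12.1 ± 1.81 and 17.4 ± 2.85 normalized counts (adjusted p = 0.214, limma), and its partner LRP2 was below the filter with 7 and 33 reads.

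The loop, distal tubule and collecting duct list, the territory of POU3F3 and TFCP2L1, had 3 of 19 genes tested, against 52.4% of all genes. Of the 3, 1 was called, against 29.2% of all genes tested. CLDN16, a tight junction gene of the thick ascending limb, fell from 600 ± 42.3 to 500 ± 23.2 normalized counts (-0.26 ± 0.063 SE, adjusted p = 0.00203, limma), and UMOD and AQP2 had no read in any sample. Of 6 podocyte genes 5 were tested, against 52.4% of all genes. Of the 5, 1 was called higher and 2 lower, against 16.2% and 13.0% of all genes tested, and DESeq2 called 1. NPHS1, which encodes the slit diaphragm protein nephrin, fell from 26.1 ± 2.40 to 8.88 ± 1.60 normalized counts (-1.47 ± 0.27 SE, adjusted p = 1.28e-04, limma). It had under 10 normalized counts in samples A and C of Caki2+PBRM1 (7.58 and 8.39) and passed the filter through Caki2+Vector. The calls of PODXL (-0.29, adjusted p = 0.0327, limma) and SYNPO (0.23, adjusted p = 0.0240, limma) were both lost without sample A of Caki2+Vector (adjusted p = 0.0691 and 0.0506). PODXL also lost it without sample B of Caki2+Vector (adjusted p = 0.0747) or samples A (0.0520) or C (0.229) of Caki2+PBRM1, and SYNPO without sample C of Caki2+Vector (adjusted p = 0.0588) or samples A (0.0650), B (0.0784) or C (0.0711) of Caki2+PBRM1. With DESeq2 neither passed (adjusted p = 0.132 for PODXL and 0.119 for SYNPO). The count of podocyte genes called was 1 without sample A of Caki2+Vector and without sample A or C of Caki2+PBRM1.

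**Figure D5:**
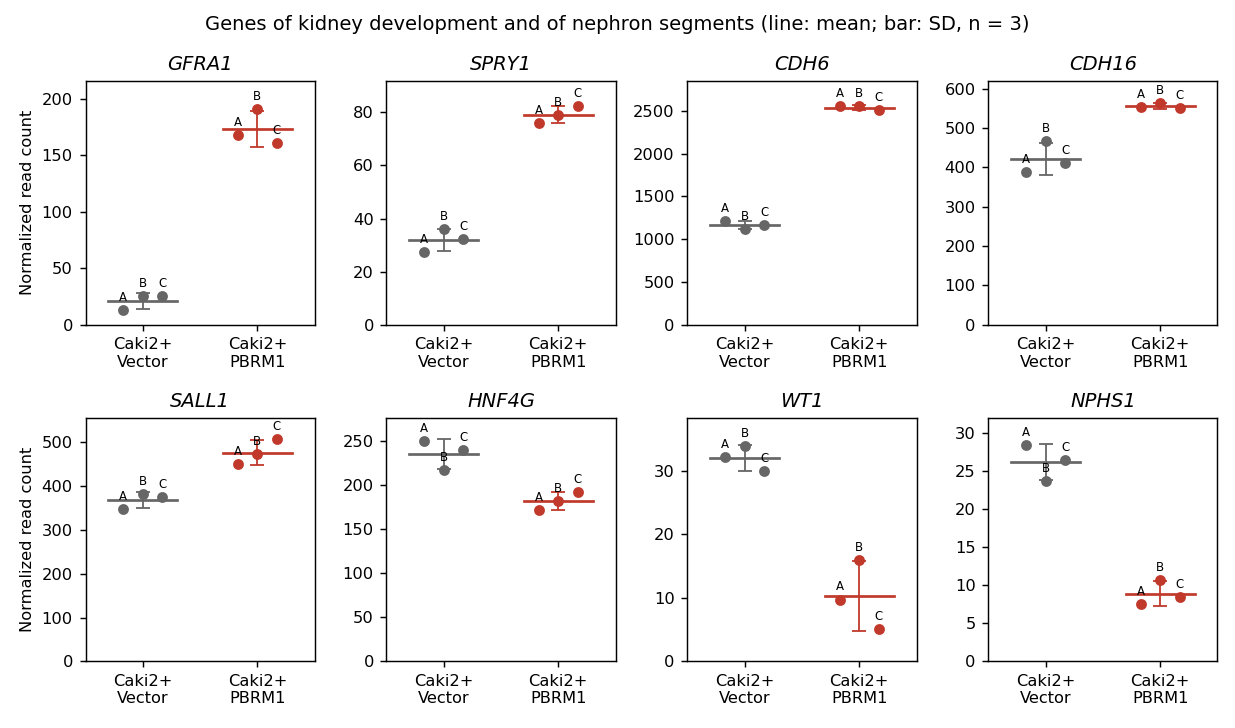
Normalized read count of 8 genes of kidney development and nephron segments in each sample (points A, B and C, line for the mean, bar for the SD, axes from 0). GFRA1, SPRY1, CDH6, CDH16 and SALL1 are higher in every Caki2+PBRM1 sample, and HNF4G, WT1 and NPHS1 are lower in every one.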

How the data were processed

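RNA-Seq of Caki2+Vector and Caki2+PBRM1 (3 samples each, groups and letters from the labels) was analyzed. The authors prepared poly(A) libraries, aligned reads to hg19 with STAR, counted them on the UCSC annotation with htseq-count and normalized with DESeq2. The deposited values are a signal, read counts divided by a size factor per sample (0.834 to 1.191): 100% of nonzero values were whole reads (tolerance 0.01).

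Genes that reached 10 normalized counts in 3 or more samples were tested on the log2(value + 1) scale with limma 3.58.1 (trend, robust; R 4.3.3), so folds of low genes are understated. On the recovered reads, edgeR 4.0.16 called 2194 genes higher and 1836 lower; DESeq2 1.42.0 and voom were also run. Limma recovered 199 of 200 simulated 2-fold changes with 3 false calls over 13307 genes. Recovery of differences under 2-fold, such as those of the tested renal lineage factors, was not tested. Recovery at low read numbers, such as those of PAX2 and TFCP2L1, was not tested either. The same holds for recovery with a sample that stands apart from its group, as sample A of Caki2+Vector did. The study calls the samples biological replicates, and whether they were separate cultures was not given in the sources used here. Lengths and positions are from GENCODE (GRCh37), matched by symbol for 83.7% of genes.

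The members and gene lists were chosen with earlier results of these data known. Named were all 8 members, fixed marker genes, and up to 4 genes per list and direction with the largest change among those called. Some genes of the lists are not reported here by name. Genes most like a member were the 3 with the highest r. Alternatives were the tools above, normalization, filter, pseudocount, threshold, replicate block and leaving out each sample.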

Additional observations from a re-analysis of the deposited data

How the results depend on the processing

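The number of genes called was 3886 by limma, 2553 with DESeq2, 2521 at an adjusted p under 0.01 and 2856 to 4170 when 1 sample was left out, against 4030 with edgeR. Renal lineage factors called higher numbered 0, and 1 with edgeR, with voom, with the replicate block and without sample B or C of Caki2+Vector (0 to 1 over the samples left out); the gene was POU3F3 each time. Those called lower numbered 0, and 1 after quantile normalization. Cofactors called numbered 4, and 2 with DESeq2 and at 0.01 (2 to 4 over the samples left out). Other kidney transcription factors called numbered 11, and 7 with DESeq2 and at 0.01. Loop, distal tubule and collecting duct genes called numbered 1, and 2 after quantile normalization and without a filter (1 to 2 over the samples left out). Podocyte genes called numbered 3, and 1 with DESeq2 and at 0.01 (1 to 2 over the samples left out). With 10 counts required in every sample, PAX6, SSBP2, ESRRG, WT1, DLL1, MME and NPHS1 were not tested. Calls then numbered 2 for family paralogs, 9 for other kidney transcription factors and 5 for ureteric bud and early nephron genes. They numbered 4 for proximal tubule genes and 2 for podocyte genes. The log2 fold change of PAX8 turned to -0.0212 after quantile normalization and ran from -0.0475 to 0.0596 over the samples left out, and that of PAX8-AS1 ran from -0.0265 to 0.1608, none of them past the threshold. VIM lost its call after quantile normalization (0.034). The threshold of 0.01 can only lower a count, and the cause of the other changes was not tested. Quantile normalization moved the median of all genes to -0.025.

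The same letters are given to both groups. Deviations of samples with the same letter from their group means were close to uncorrelated (r of 0.0059, -0.0077 and 0.0138 across genes). Whether a shared letter marks a shared culture or batch was not given in the sources used here, and these values cannot decide it. With the replicate block 2249 genes were called higher and 1858 lower. Among values of named genes over the alternatives, 630 kept direction and call, 39 lost the call, 8 gained it and 3 changed sign. The low read numbers of PAX2, TFCP2L1, EMX2 and HNF4A limit which differences could be detected, and limits from reads cover counting error only.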
